A study of Homo sapiens with 27 samples.

Results

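The genes described here code for BET proteins and for the kinase and RNA-protein complex they work with. They are 9 genes taken by symbol and matched to gene identifiers through GENCODE 44, of 57905 gene identifiers in the table: BRD2 and BRD3 (BET proteins), CDK9, CCNT1 and CCNT2 (the kinase P-TEFb), and HEXIM1, HEXIM2, LARP7 and MEPCE (the 7SK RNA-protein complex). The rule is a list of symbols and uses no measured value of these libraries, though earlier results of the data were known when the list was made. The RNA-seq libraries came from U937, a human myelomonocytic cell line whose label reads myeloid leukemia cells. There were 3 control libraries, 3 libraries of cells exposed to matrine at 0.8 mg/ml over 30 min and 3 of cells exposed to that dose over 24 h. Matrine is a plant alkaloid, and its vehicle was water. One set of controls served both times, and how long the control cells were cultured is not given in the sources used here. The other cell lines of the series, HL-60 and K562, were not analysed here.

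BET proteins bind acetylated histones through paired bromodomains and help bring P-TEFb, the kinase CDK9 with cyclin T1 or T2, to active genes. P-TEFb phosphorylates RNA polymerase II and the factors that hold it paused near the start of a gene, and so lets elongation begin. Much of the cell's P-TEFb is kept inactive on the 7SK RNA by HEXIM1 or HEXIM2, on a scaffold made by LARP7, which binds the RNA's 3′ end, and MEPCE, which caps its 5′ end. BET inhibitors are studied in myeloid leukemia because they lower MYC, and HEXIM1 is a transcript known to rise with them.

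Library totals lay between 17314931 and 21930018 counts, the 10 most abundant genes took 4.99% to 5.28% of them, and the spread among replicate libraries exceeded sampling noise. That spread was uneven. Between 2 libraries of a group the chi-square per degree of freedom was 5.28 to 11.9 at 30 min, 2.38 to 7.39 in control and 2.14 to 3.1 at 24 h. Of the 8 myeloid markers, 7 passed the filter on low values. The exception was CD68 at 0.557 FPKM in control, and SPI1 stood at 67.6 and LYZ at 292.3 FPKM. Among the 4 erythroid and 4 epithelial markers none exceeded a mean of 0.02 FPKM in any group, and the lymphoid markers CD3E, CD3D and MS4A1 were at 0. At 24 h, 4 of the 7 myeloid markers tested rose and 2 fell, against 31.5% of all genes tested higher and 31.8% lower. The largest rises were of TYROBP at 2.08 and FCER1G at 1.71 on the log2 scale, and SPI1 fell by 0.32 and LYZ by 0.31. In bulk RNA, fewer cells of a type and less RNA per cell cannot be told apart.

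All 9 genes had reads, but their levels differed widely. In control cells the order per length, as mean FPKM (fragments per kilobase, scaled by library total and so corrected for gene length) ± SD of 3 libraries, was MEPCE at 48.2 ± 0.119, BRD2 at 40.6 ± 1.43, CDK9 at 18.4 ± 1.31, HEXIM1 at 14.2 ± 0.459, LARP7 at 10.6 ± 0.293, CCNT2 at 7.84 ± 0.921, CCNT1 at 7.14 ± 0.300, BRD3 at 5.68 ± 0.110 and HEXIM2 at 0.563 ± 0.115. Each neighbouring pair in this order was separate in its library ranges except CCNT2 and CCNT1, which overlapped in every group. CDK9 and HEXIM1 also overlapped at 30 min. At 24 h BRD2 stood above MEPCE, while the rest of the order was as in control. The mean control level of BRD2 exceeded that of 89.5% of the genes with a mean above 1 FPKM over all libraries, and that of BRD3 exceeded 44.2%. FPKM depends on the gene lengths the authors used, and so does the order above, mainly the places of HEXIM1 and LARP7. The length implied by the deposited values was close to the merged exons of GENCODE 44 for most of the genes, but was 7337 against 8995 bases for BRD2, 4785 against 3625 for HEXIM1 and 4084 against 8094 for LARP7.

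**Figure D1:**
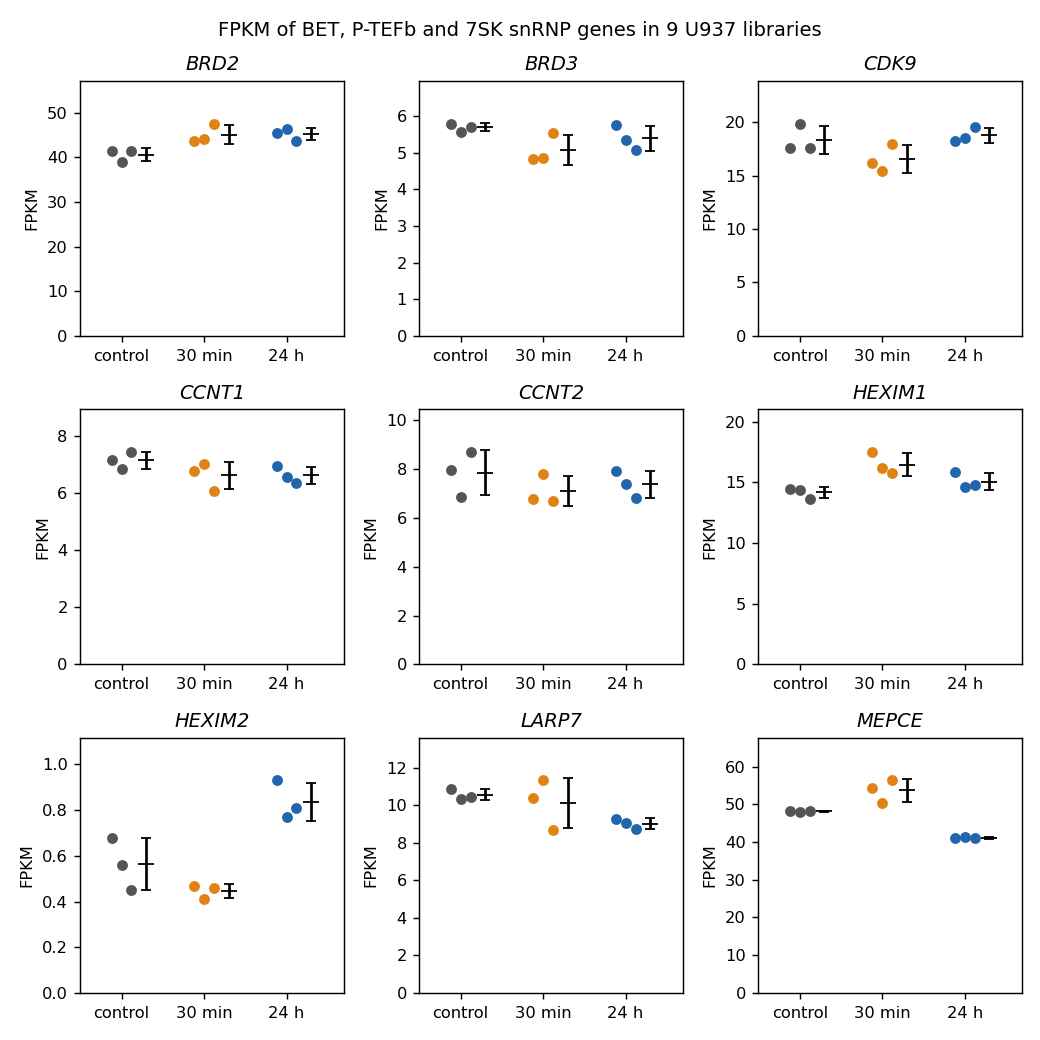
FPKM of each gene (vertical axis, from 0, with its own scale per gene) in the control, 30 min and 24 h libraries; points are libraries and black bars are the mean ± SD of 3. MEPCE is at 41.0 to 41.2 FPKM in all 24 h libraries, below the 48.1 to 48.3 of the controls, and HEXIM2 stays below 1 FPKM throughout.

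Stretches before a RefSeq start of HEXIM1, LARP7 and MEPCE are shown because these are the genes of the set that passed a test in at least 1 comparison below. They come from RefSeq promoter windows on GRCh38.p14, on the plus strand, and cover only bases before a RefSeq start that lie in no annotated UTR of GENCODE 44. Capitals mark a match to TATAAA (or TTTATA on the other strand) or to the E-box CACGTG, which reads the same on both strands and is the form bound by MYC and related factors. The matches do not overlap each other. The HEXIM1 stretch lies almost wholly, for 246 of 250 bases, in an exon of a long noncoding RNA on the opposite strand, and the MEPCE stretch in no annotated exon. In the LARP7 stretch 36 of 117 bases, at its ends, lie in exons of transcripts with no coding annotation, among them the first bases of LARP7 as GENCODE 44 places it. MEPCE has 3 windows, and the one shown was picked after the search because it was the one with a match. It precedes a downstream start and lies within MEPCE as GENCODE 44 places it, from chr7:100428322, so it is not upstream of the whole gene.
HEXIM1, chr17:45148225-45148474: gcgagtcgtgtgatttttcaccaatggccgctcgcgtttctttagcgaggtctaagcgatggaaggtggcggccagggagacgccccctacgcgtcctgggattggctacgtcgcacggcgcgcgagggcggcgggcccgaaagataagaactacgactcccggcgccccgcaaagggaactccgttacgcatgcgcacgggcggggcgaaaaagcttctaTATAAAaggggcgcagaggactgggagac
LARP7, chr4:112636990-112637106: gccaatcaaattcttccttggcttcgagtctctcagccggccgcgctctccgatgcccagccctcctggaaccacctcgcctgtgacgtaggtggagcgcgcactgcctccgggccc
MEPCE, chr7:100429197-100429374: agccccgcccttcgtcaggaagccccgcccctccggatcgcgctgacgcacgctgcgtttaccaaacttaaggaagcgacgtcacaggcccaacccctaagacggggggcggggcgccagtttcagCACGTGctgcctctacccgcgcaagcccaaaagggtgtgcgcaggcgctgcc

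The TATAAA match in HEXIM1 begins 29 bases before the start, and it was the only one in the 17 windows of 250 bases that RefSeq gives for the 9 genes. CACGTG was in 2 of the 17, in 1 of 3 windows of MEPCE, 124 bases before a downstream start, and in 1 of 2 windows of CCNT1. Over all 35116 windows of that length, 10.7% held TATAAA and 6.34% held CACGTG on either strand. A match describes the letters and is not a measured site.

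The comparison of 30 min of matrine with control asks which transcripts respond early. None of the 8 genes with a mean above 1 FPKM passed the test, against 1.62% of all 11587 genes tested (1.33% lower, 0.293% higher). Counts were scaled between libraries by TMM and tested with the quasi-likelihood method of edgeR, and a gene passed at a Benjamini-Hochberg adjusted p below 0.05 over all genes tested. At an unadjusted p under 0.05 there were 3 genes, BRD2, HEXIM1 and MEPCE. The share of all genes under that unadjusted level was not computed in any comparison, so such counts have no background here. The same 3 genes were those whose 30 min libraries all lay above all control libraries in TMM-scaled counts, as 7.14% of all genes tested did. On this TMM scale none of the 8 lay below all controls, as 7.09% of all genes did, while BRD3 did in FPKM. None changed by 1.5-fold, as 0.544% of all genes did downwards and 0.0949% upwards. By DESeq2 2 genes were called higher and 0 lower, and by limma on log2 FPKM 0 either way. Over all 11587 genes DESeq2 called 247, 73.3% of them lower. The limma fits with pseudocounts 0.1 and 1 called 141 and 145, 82.3% and 81.4% of them lower. The median size of the log2 fold change was 0.15 over the 8 genes and 0.07 over all genes tested.

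After 24 h of matrine MEPCE fell by 0.28 and LARP7 by 0.27 on the log2 scale, and none of the others passed the test. These were 2 of 8 genes lower and 0 higher, against 31.8% of 12035 genes tested lower and 31.5% higher (63.3% in either direction). Both remained lower in each of the 18 alternative fits. No gene of the set reached a change of 1.5-fold, as 11.2% of all genes tested did downwards and 15.1% upwards. The median size of the log2 fold change was 0.13 over the 8 genes against 0.35 over all genes tested. The 24 h libraries of BRD3, CCNT1, LARP7 and MEPCE lay below all controls in TMM-scaled counts, as in 34.1% of all genes, and those of BRD2 above, as in 35.8%. With 0 higher calls by edgeR, 0 of the 3 genes at an unadjusted p under 0.05 were on the higher side. DESeq2 gave 0 higher and limma 1, BRD2. Over all 12035 genes DESeq2 called 7473, 51.2% of them lower. The limma fits with pseudocounts 0.1 and 1 called 7361 and 7433, 44.98% and 44.65% of them lower.

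**Figure D2:**
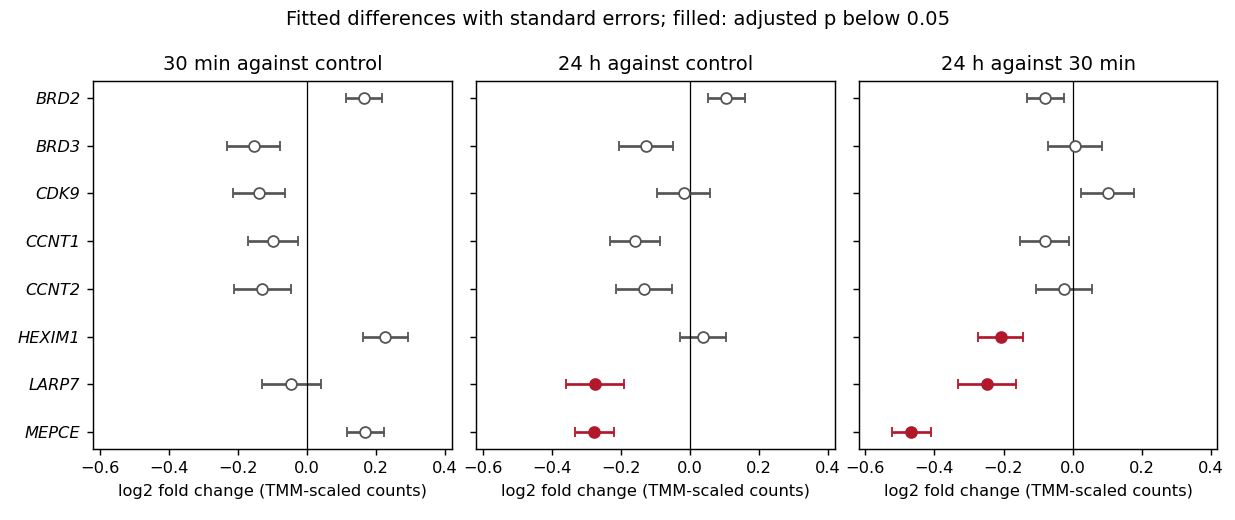
Fitted log2 fold change (horizontal axis, TMM-scaled counts) of the 8 genes tested in the 3 comparisons, with standard errors as bars; filled red points passed an adjusted p of 0.05. All filled points lie on the lower side, and MEPCE at 24 h against 30 min, at -0.47, is the farthest from 0.

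BRD2, on chr6:32968594-32981505, encodes the BET protein with the higher mRNA level of this pair. In control libraries 1 to 3 it stood at 41.4, 39.0 and 41.5 FPKM, at 30 min at 43.7, 44.1 and 47.6, and at 24 h at 45.6, 46.3 and 43.7. Every treated library was above every control library, and the libraries of the 2 treatment times overlapped. The log2 fold change was 0.16 (SE 0.05, adjusted p = 0.139) at 30 min and 0.11 (SE 0.05, adjusted p = 0.0863) at 24 h, so BRD2 passed neither test. DESeq2 gave an adjusted p of 0.0457 at 30 min. At 24 h, 6 of 18 alternatives passed, among them scaling by library totals alone (0.15, adjusted p = 0.0153) and the fit without 30 min library 3 (adjusted p = 0.0305), a library outside the comparison that enters through the shared spread. The adjusted p over all 18 ran from 0.0110 to 0.644, and without control library 2 the value was 0.07 (adjusted p = 0.313).

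BRD3, on chr9:134030305-134068535, encodes a BET protein closely related to BRD2. It had 5.79, 5.57 and 5.69 FPKM in the control libraries, 4.81, 4.84 and 5.54 at 30 min, and 5.75, 5.34 and 5.06 at 24 h. The 30 min libraries were below all controls in FPKM and overlapped them after TMM scaling, by way of library 3. The log2 fold change was -0.15 (SE 0.08, adjusted p = 0.486) at 30 min and -0.13 (SE 0.08, adjusted p = 0.164) at 24 h, and no alternative passed. Exons of BRD3OS on the opposite strand cover 18.6% of BRD3's exon length. BRD3OS itself fell at 24 h, by 0.55 on the log2 scale, and without a stated strand setting reads of the pair cannot be told apart.

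Within a library, the FPKM ratio of BRD2 to BRD3 does not depend on scaling between libraries. It was 7.15, 7.0 and 7.29 in control, 9.08, 9.11 and 8.59 at 30 min, and 7.92, 8.67 and 8.63 at 24 h. Treated libraries were above control libraries without overlap at both times. By an exact two-sided permutation test the p was 0.1 at each time, the smallest that 3 against 3 libraries can give, or 0.2 adjusted over the 12 comparisons of 4 ratios.

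CDK9, on chr9:127785679-127790792, is the kinase of P-TEFb. Its level was 17.6, 19.9 and 17.6 FPKM in control, 16.1, 15.5 and 17.99 at 30 min, and 18.2, 18.5 and 19.5 at 24 h. Control and treated libraries overlapped at both times. The log2 fold change at 24 h was -0.02 (SE 0.08, adjusted p = 0.856), with an approximate 95% interval of -0.17 to 0.13. At 30 min it was -0.14 (SE 0.08, adjusted p = 0.537), with an interval of -0.29 to 0.01.

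CCNT1, on chr12:48688458-48716998, encodes cyclin T1, the main partner of CDK9. It stood at 7.16, 6.83 and 7.43 FPKM in control, 6.75, 7.01 and 6.08 at 30 min, and 6.94, 6.54 and 6.36 at 24 h. In FPKM the 24 h and control ranges overlapped, and after TMM scaling the 24 h libraries were all lower. The log2 fold change at 24 h was -0.16 (SE 0.07, adjusted p = 0.0597), just short of the threshold. It passed in 7 of 18 alternatives, among them DESeq2 (adjusted p = 0.0499) and the fits without control library 2 (0.0327), 30 min library 2 (0.0475) and 30 min library 3 (0.0254), and the adjusted p over all 18 ran from 0.0176 to 0.204.

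CCNT2, on chr2:134918235-134959342, encodes the other cyclin of P-TEFb, cyclin T2. It stood at 7.96, 6.86 and 8.69 FPKM in control, 6.77, 7.81 and 6.70 at 30 min, and 7.92, 7.40 and 6.81 at 24 h, with overlap between all groups. The log2 fold change at 24 h was -0.13 (SE 0.08, adjusted p = 0.157). Without control library 2, which had the lowest control value, it was -0.23 (adjusted p = 0.0155), and without control library 3, the highest, -0.07 (adjusted p = 0.537). The ratio of CCNT1 to CCNT2 averaged 0.917 in control, 0.934 at 30 min and 0.898 at 24 h, and the libraries of the 3 groups overlapped.

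HEXIM1, on chr17:45148475-45152099, is a single exon in this annotation and encodes the main inhibitor of P-TEFb on 7SK. It had 14.5, 14.4 and 13.7 FPKM in control, 17.5, 16.2 and 15.7 at 30 min, and 15.8, 14.6 and 14.8 at 24 h. All 30 min libraries were above all control libraries, and the 24 h libraries were above control in FPKM but overlapped it after TMM scaling. At 30 min the log2 fold change was 0.23 (SE 0.07, adjusted p = 0.0993), the largest of the 8 tested genes at that time, with DESeq2 at an adjusted p of 0.0347. At 24 h it was 0.04 (SE 0.07, adjusted p = 0.630).

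HEXIM2, on chr17:45160700-45170040, lies 8600 bases beyond HEXIM1 and encodes a related inhibitor. Its level was 0.68, 0.56 and 0.45 FPKM in control, 0.47, 0.41 and 0.46 at 30 min, and 0.93, 0.77 and 0.81 at 24 h, from 67, 57 and 107 counts summed over the 3 libraries of each group. The 24 h libraries were above all others, but the gene was under the filter and so was not tested. With no filter, the log2 fold change was -0.33 (SE 0.34, adjusted p = 0.750) at 30 min against control, 0.44 (SE 0.31, adjusted p = 0.327) at 24 h against control, and 0.77 (SE 0.32, adjusted p = 0.0461) at 24 h against 30 min. Exons of 2 opposite-strand long noncoding RNAs overlap HEXIM2, and strand cannot be told apart here. HEXIM2-AS1 had 0 counts in control, 1 at 30 min and 10 at 24 h, and the other 5, 7 and 4, summed over 3 libraries.

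The ratio of HEXIM1 to HEXIM2 averaged 25.8 ± 4.52 in control, 37.0 ± 2.60 at 30 min and 18.1 ± 0.985 at 24 h (SD, n = 3), and no 2 groups overlapped. The summed FPKM of HEXIM1 and HEXIM2 over that of CDK9 was 0.863, 0.753 and 0.802 in control and 1.11, 1.07 and 0.901 at 30 min. It was 0.921, 0.832 and 0.797 at 24 h. The 30 min libraries were above all controls, and the 24 h libraries overlapped both other groups. Where the groups did not overlap, the exact two-sided permutation p was 0.1 and 0.2 adjusted over the 12 comparisons.

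**Figure D3:**
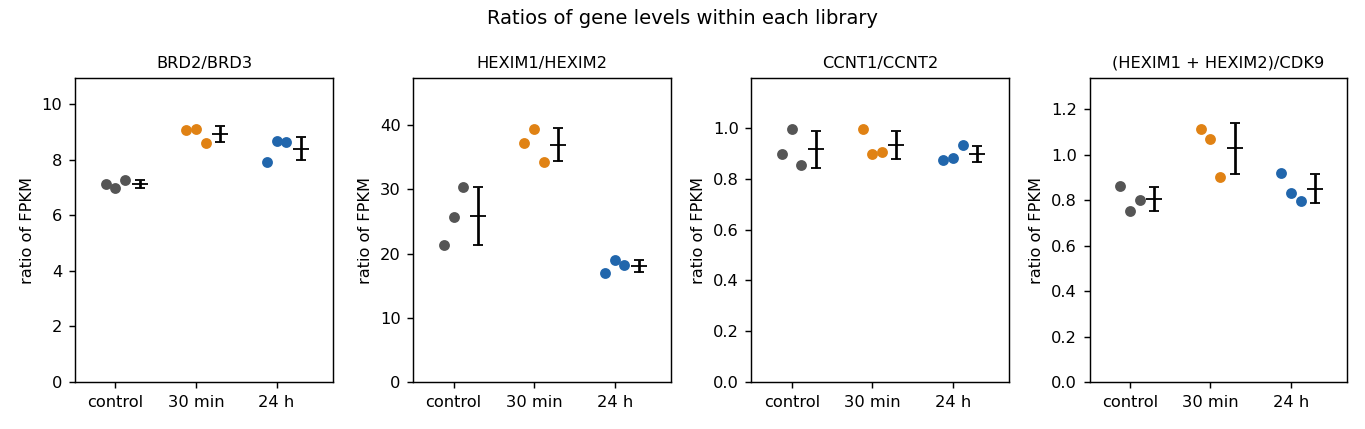
Ratios of FPKM within each library (vertical axes from 0) for BRD2 to BRD3, HEXIM1 to HEXIM2, CCNT1 to CCNT2, and HEXIM1 plus HEXIM2 to CDK9; points are libraries and black bars the mean ± SD of 3. The BRD2 to BRD3 ratio is higher in all 6 treated libraries, while the CCNT1 to CCNT2 ratio overlaps between groups.

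LARP7, on chr4:112637077-112657696, encodes the protein that binds and stabilises 7SK RNA. It had 10.9, 10.3 and 10.4 FPKM in control, 10.4, 11.3 and 8.69 at 30 min, and 9.29, 9.04 and 8.74 at 24 h. The 24 h libraries were all below control, and the 30 min libraries overlapped both, with library 3 the lowest of all 9 in FPKM. LARP7 fell by 0.27 on the log2 scale at 24 h (SE 0.08, adjusted p = 0.00739), and the adjusted p over the alternatives ran from 0.000262 to 0.0459. At 30 min the log2 fold change was -0.05 (SE 0.09, adjusted p = 0.906). Without 30 min library 3 it was 0.06.

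MEPCE, on chr7:100428322-100434126, encodes the methyltransferase that caps 7SK RNA. It had 48.3, 48.1 and 48.1 FPKM in control, 54.3, 50.4 and 56.3 at 30 min, and 41.0, 41.2 and 41.0 at 24 h. The 3 groups did not overlap, with 30 min highest and 24 h lowest. MEPCE fell by 0.28 on the log2 scale at 24 h (SE 0.06, adjusted p = 0.000238), which is 17.5% with an approximate 95% interval of the fold from 0.764 to 0.891. At 30 min it was 0.17 (SE 0.05, adjusted p = 0.154), and without 30 min library 2, the lowest of its group, 0.24 (adjusted p = 0.0233). By GENCODE 44, exons of the same-strand gene ENSG00000289690 cover 61.3% of MEPCE's exon length. It matched no identifier of the table, and how reads in the shared exons were assigned was not tested. Exons of ZCWPW1 on the opposite strand cover 6.02%, and ZCWPW1 itself had -0.03 on that scale (24 h, adjusted p = 0.839).

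The third comparison, 24 h against 30 min, uses no control library. Of the 8 genes 3 were lower at 24 h, MEPCE, LARP7 and HEXIM1, and 0 were higher, against 32.6% of 11981 genes tested lower and 32.5% higher (65.1% in either direction). In TMM-scaled counts 2 of the 8, MEPCE and HEXIM1, did not overlap and were lower, against 33.4% of all genes, and 0 were higher, against 34.9%. None changed by 1.5-fold, as 11.5% of all genes did downwards and 15.4% upwards. MEPCE fell by 0.47 on the log2 scale (SE 0.06, adjusted p = 3.47e-07), and this held in each of the 18 alternatives. None of the 3 genes at an unadjusted p under 0.05 was higher, and DESeq2 gave 0 higher. Over all 11981 genes DESeq2 called 7634, 50.7% of them lower. CDK9 had 0.10 (SE 0.08, adjusted p = 0.254). Its 24 h libraries were all above its 30 min libraries in FPKM but overlapped them after TMM scaling. CDK9 was called higher by limma, with library totals alone and at a mean FPKM above 5, at adjusted p of 0.0363 to 0.0453.

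HEXIM1 fell by 0.21 between 30 min and 24 h (SE 0.07, adjusted p = 0.00905) and LARP7 by 0.25 (SE 0.08, adjusted p = 0.0138), each in 12 of 18 alternatives. The libraries of the 2 times did not overlap for HEXIM1 after TMM scaling but did in FPKM, and those of LARP7 overlapped on both scales. With library totals alone the values were -0.13 (adjusted p = 0.0883) for HEXIM1 and -0.17 (adjusted p = 0.0912) for LARP7. HEXIM1 also lost the call without 30 min library 1 (-0.16, adjusted p = 0.0648) or 24 h library 2 (-0.18, adjusted p = 0.0559). LARP7 lost it without 30 min library 2 (-0.17, adjusted p = 0.0805) or 24 h library 3 (-0.22, adjusted p = 0.0661).

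**Figure D4:**
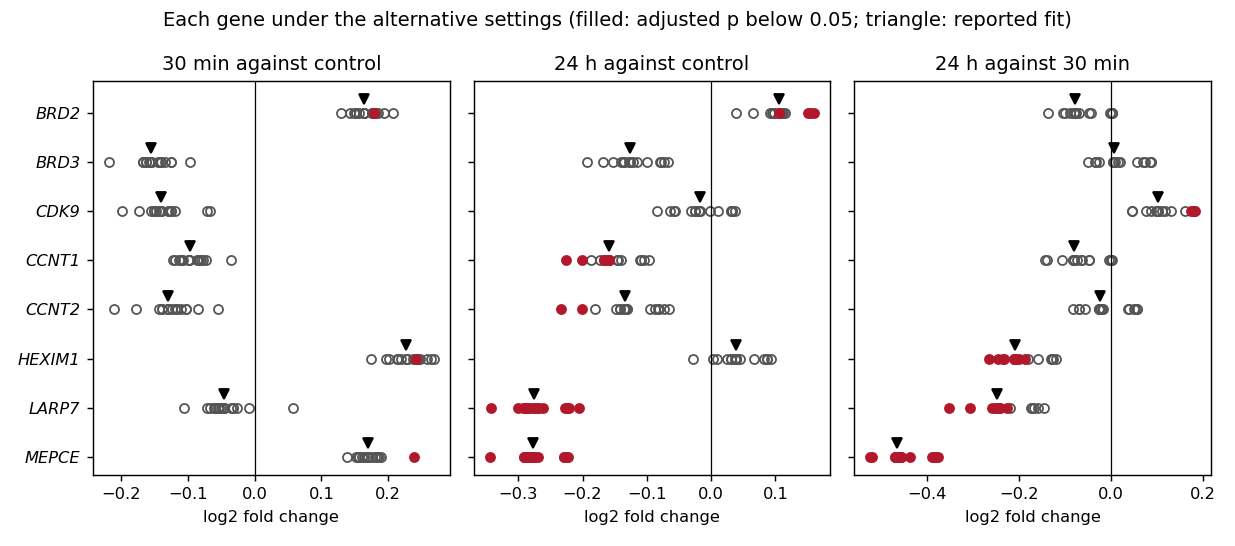
Log2 fold change (horizontal axis) of each gene in the 3 comparisons under 18 alternative fits; circles are alternatives, filled red where the adjusted p was below 0.05, and triangles mark the reported fit. MEPCE and LARP7 are filled in all alternatives at 24 h against control, and only MEPCE is at 24 h against 30 min.

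The genes whose TMM-scaled levels followed MEPCE most closely over the 9 libraries were TRMT1, a tRNA methyltransferase (Pearson r = 0.994), BAHD1, a chromatin protein (0.992), and MTA2, a subunit of the NuRD complex (0.991). For LARP7 they were NDUFA5, a subunit of respiratory complex I (0.994), UBE2V2, a ubiquitin-conjugating enzyme variant (0.993), and ANP32E, a histone chaperone (0.992). MEPCE and LARP7 had an r of 0.54 with each other, and LARP7 had 0.87 with CCNT1. These values are a description, since the 9 libraries share 3 groups and the same depth range, and the top genes were picked from all those with a mean above 1 FPKM.

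The other genes that act with BET proteins, P-TEFb and 7SK RNA were taken as lists of 51 genes in all, of which 46 were tested in each comparison. At 30 min none passed in either direction, with 3 at an unadjusted p under 0.05 and 0 by DESeq2 or limma. At 24 h 29 of the 46 fell and 4 rose, where 31.8% of all genes tested were lower and 31.5% higher. In either direction the shares were 71.7% against 63.3%, with a median log2 fold change of -0.25 against 0.01. Against 30 min 26 of the 46 were lower and 4 higher, where 32.6% of all genes tested were lower and 32.5% higher. In either direction the shares were 65.2% against 65.1%, with a median of -0.26 against 0.01.

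The testis BET gene BRDT had 0 counts in every library. The 7SK RNA itself, RN7SK, matched no identifier of the table and is not analysed here.

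Of 10 genes that bind 7SK or release P-TEFb from it, all 10 passed at 24 h, 7 lower and 3 higher, against 63.3% of all genes tested in either direction, 31.8% lower and 31.5% higher. DDX21, an RNA helicase found mainly in the nucleolus, fell by 1.54 (SE 0.06, adjusted p = 2.84e-14), from 121.5 FPKM in control to 43.2. PPM1G, a phosphatase that acts on P-TEFb bound to 7SK, fell by 0.83 (SE 0.06, adjusted p = 9.09e-11). Both changes were larger than those of any of the 4 genes of the 7SK complex, without a test of that difference.

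Among the pausing factors DSIF and NELF 5 of 6 genes fell at 24 h, 83.3% against 63.3% of all genes in either direction and 31.8% lower, with NELFA at -0.45 and NELFB at -0.33. The remaining one, SUPT5H, had 0.10 (adjusted p = 0.173). In the super elongation complex, which carries P-TEFb to paused genes, 3 of 6 tested genes passed, all lower. That was 50.0%, against 31.8% of all genes lower and 63.3% in either direction. AFF1 fell by 0.31 and ELL by 0.20. Of 11 PAF1 complex and elongation factor genes 7 fell and 0 rose. That was 63.6%, all lower, against 31.8% of all genes lower, 31.5% higher and 63.3% in either direction. The largest falls were of SSRP1 at -0.77 and SUPT16H at -0.71, the subunits of the histone chaperone FACT.

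Of 9 genes for other transcriptional kinases and their cyclins 5 fell and 1 rose, 66.7% against 63.3% of all genes in either direction. Of all genes tested 31.8% were lower and 31.5% higher. The one that rose was CDK19, a Mediator kinase, by 0.87 (SE 0.07, adjusted p = 1.88e-09), while CCNH, the cyclin of the CDK-activating kinase, fell by 0.67. Of 5 partners of the BET extraterminal domain 2 fell, ATAD5 by 0.30 among them, and 1 rose, 60.0% against 63.3% of all genes in either direction. The latter was the dioxygenase JMJD6, by 0.52 (SE 0.08, adjusted p = 7.45e-06), which is also on the list of 7SK factors.

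**Figure D5:**
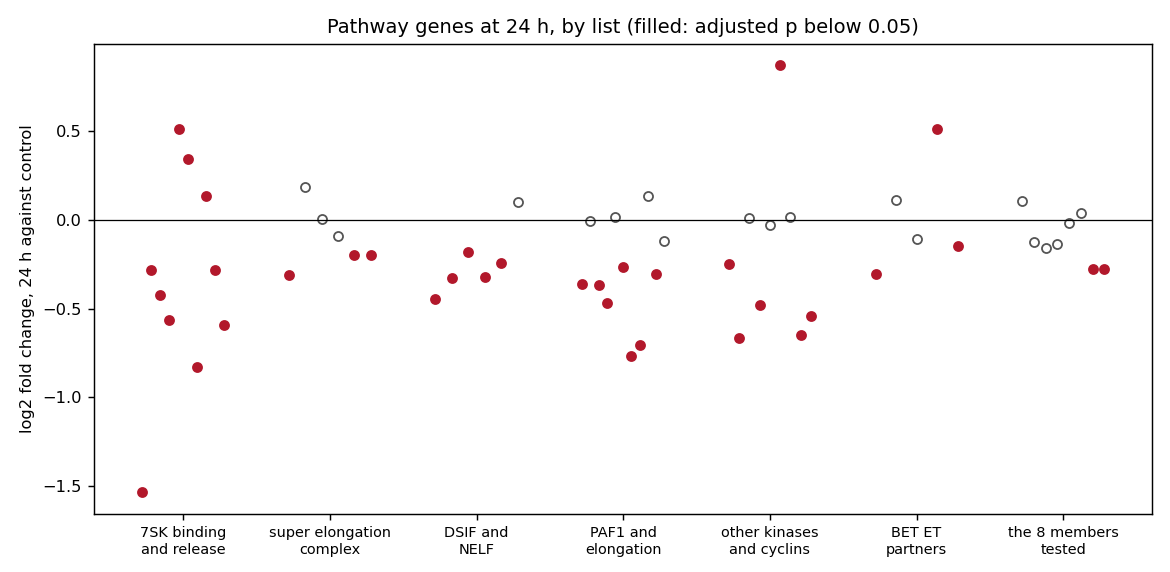
Log2 fold change at 24 h against control (vertical axis) of the tested genes of each pathway list and of the 8 tested BET, P-TEFb and 7SK complex genes; each point is a gene, filled red where the adjusted p was below 0.05. DDX21 at -1.54 is the lowest point and CDK19 at 0.87 the highest, while the 8 genes on the right lie between -0.28 and 0.11.

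Genes used as markers of BET inhibition were few among those tested. Of 5 known to rise, 2 had enough reads to be tested, and both were higher at 24 h, as 31.5% of all genes tested were. ZCCHC24 had a log2 fold change of -0.10 at 30 min (adjusted p = 0.791) and rose by 0.80 at 24 h (SE 0.09, adjusted p = 1.55e-07), and ZMYND8 had -0.07 at 30 min (adjusted p = 0.769) and rose by 0.33 at 24 h (SE 0.06, adjusted p = 8.79e-05).

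SERPINI1, H2BC21 and H2BC18 were under the filter, with 32, 32 and 9 counts in control, 32, 33 and 12 at 30 min, and 86, 136 and 23 at 24 h, each summed over 3 libraries. Of 3 known to fall, CCR2 and CD180 were under the filter, with 44 and 2 counts in control, 23 and 9 at 30 min, and 37 and 25 at 24 h. The third, MYC, was tested. MYC fell by 1.93 at 30 min (SE 0.06, adjusted p = 2.67e-14) and fell by 2.29 at 24 h (SE 0.06, adjusted p = 2.66e-17). HEXIM1, which also serves as such a marker, had the values given above, with an adjusted p of 0.0993 at 30 min and 0.630 at 24 h.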

How the data were processed

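RNA-seq libraries of U937 cells were analysed in 3 groups of 3. Per the labels and the study's methods, reads were trimmed with cutadapt 1.9.1, aligned with HISAT2 2.0.1 and counted per gene with HTSeq 0.6.1. The authors deposited raw counts and rounded FPKM values for 57905 genes. The methods name hg38 and the submitters' processing notes name GRCh37. Annotation release, strand setting and handling of multimapping reads are not given in the sources used here. The kit selects mRNA, and the methods also name rRNA removal. Coordinates are those of GENCODE 44 on GRCh38 and promoter windows those of RefSeq.

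Counts were tested with edgeR 4.0.16 (R 4.3.3), TMM scaling and quasi-likelihood fits on all 9 libraries, for genes with a mean FPKM above 1 over the 6 libraries compared, and called at an adjusted p below 0.05 (Benjamini-Hochberg). Standard errors were derived from the fold change and its F statistic, and intervals are approximate. FPKM values gave levels and ratios. The labels do not say that libraries of a group came from separate cultures, so p-values measure the spread between libraries, which may be technical. Library totals were 17314931 to 21930018 counts. In simulated data for 24 h against control (11899 genes), edgeR recovered 14 of 67 genes changed by 1.2-fold. It recovered 61 of 67 changed by 1.5-fold and 63 of 66 by 2-fold, with 13 false calls. The simulation changed few of its genes and gave every gene the same assumed spread, while 63.3% of genes tested passed in the data. Its counts therefore do not give the share of changes that the real comparison could detect.

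All 9 genes are named. Of each other pathway list at most the 2 genes with the largest change at 24 h among those that passed were to be named. SUPT5H, BRDT and the cell type markers singled out were named after their values were seen. Marker genes of BET inhibition are all named. For MEPCE and LARP7, the 2 largest changes at 24 h among the genes that passed the test, the 3 most alike genes are named. A gene of the pathway lists and a lymphoid marker are not reported here. WDR61 was found under its RefSeq name SKIC8. The genes and lists were chosen with earlier results of these data known. Alternatives were other scaling, DESeq2 1.42.0, limma 3.58.1 on log2(FPKM + 0.1) and log2(FPKM + 1), other filters, a 1.5-fold threshold, only the libraries compared, a replicate block and leaving out each library.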

Additional observations from a re-analysis of the deposited data

Results flagged for a closer look

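Effects at the 2 times, each against the same 3 control libraries, differed for 3 of the 8 genes in the test of the difference itself, which is 24 h against 30 min in the edgeR fit. The effect of 24 h minus that of 30 min was -0.47 for MEPCE, -0.25 for LARP7 and -0.21 for HEXIM1 on the log2 scale, against 65.1% of all genes tested that differed between the 2 times. MEPCE held in all 18 alternatives, and LARP7 and HEXIM1 in 12 each.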

How the results depend on the processing

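MEPCE and LARP7 remained lower at 24 h against control in all 18 alternatives, and MEPCE at 24 h against 30 min. At 30 min, DESeq2 called 2 genes higher and the fit without 30 min library 2 called 1, so leaving out a library gave 0 to 1. Over all genes these 2 fits called 247 of 11587 and 230 of 11609, 73.3% and 67.8% of them lower. At 24 h against control, 4 genes were lower with no FPKM filter and 0 at 1.5-fold, and leaving out a library gave 2 to 4 lower and 0 to 1 higher. Over all genes the fit with no filter called 8927 of 27768, 52.1% of them lower. At 1.5-fold 11.2% of all genes tested were lower, and leaving out a library called 6931 to 7971 genes. In this comparison 1 gene was higher with library totals alone, both limma fits, a mean FPKM above 5 and only the 6 libraries compared. In that order these fits called 7650, 7361, 7433, 5109 and 8026 genes, of 7273 tested at a mean FPKM above 5 and 12035 otherwise. Of those calls 44.89%, 44.98%, 44.65%, 51.95% and 50.2% were lower. At 24 h against 30 min, 1 gene was lower and 1 higher with library totals alone, both limma fits and a mean FPKM above 5. In that order these fits called 7854, 7540, 7597 and 5136 genes, of 7195 tested at a mean FPKM above 5 and 11981 otherwise. Of those calls 41.53%, 41.67%, 41.4% and 51.15% were lower. The count at 1.5-fold was 0 lower, and with no filter 1 was higher, HEXIM2. Over all genes the fit with no filter called 9073 of 27615, 50.4% of them lower. Leaving out a library gave 2 to 3 lower in this comparison and called 7062 to 7981 genes in all. The replicate block gave the same counts, 0, 2 and 3 lower and 0 higher, and changed no gene's call. Same-numbered libraries had correlations of deviations of -0.26 to 0.13, and in each comparison 1 of 3 correlated best with its own number. With so few libraries, this check cannot decide whether same-numbered libraries were paired.

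Changes of sign were limited to values that passed no test. At 24 h against control, HEXIM1 was -0.0282 with no filter, and CDK9 was 0.0307 with library totals alone, 0.0319 and 0.0303 by limma (pseudocounts 0.1 and 1) and 0.0373 at a mean FPKM above 5. At 24 h against 30 min, BRD2 was 0.0014 with library totals and 0.002 by both limma fits, BRD3 -0.0497 with no filter, CCNT1 0.0016 and 0.0012 by limma, and CCNT2 0.0558 with library totals, 0.0566 and 0.0503 by limma and 0.0518 at a mean FPKM above 5. Leaving out a library gave -0.1053 to 0.0572 for LARP7 at 30 min and -0.0646 to 0.033 for CDK9 at 24 h. Between the 2 times it gave -0.0337 to 0.0706 for BRD3 and -0.0689 to 0.0396 for CCNT2. Library totals in place of TMM raised the median of all genes by 0.05 at 24 h against control and by 0.08 against 30 min, and the lower share of all calls went from 50.2% to 44.9% and from 50.1% to 41.5%. The cause of the other shifts was not tested. In simulated data with 3 libraries a group, few changed genes and the same assumed spread for every gene, changes near 1.2-fold were mostly missed. The data at 24 h against control differed from that setting, with 63.3% of genes tested called. MEPCE and LARP7 passed there with falls of 0.28 and 0.27 on the log2 scale.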
